A study of Mus musculus with 6 samples.

Results

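The Krüppel-like factors, encoded by the Klf genes, are DNA-binding transcription factors, and 10 of them were described here in the primary visual cortex (V1) of mice with 1 eye closed. The members were the rows of the gene count table whose Ensembl identifier carries the name Klf2, Klf4, Klf5, Klf6, Klf7, Klf9, Klf10, Klf13, Klf15 or Klf16. They were 10 of 52636 genes in the table and 10 of its 17 Klf genes. The study asked how circular RNA and gene expression in V1 depend on visual experience. The lids of the right eye were sutured for 3 days in wild-type C57BL/6J mice, a procedure called monocular deprivation, and tissue was taken at postnatal day 28. Left V1, contralateral to the closed eye, gave 3 libraries, and right V1, ipsilateral to it, gave 3 libraries from the same 3 mice. All mice were sutured, so both groups carry the suture, the anaesthesia and the age, and each comparison is between the hemispheres of sutured animals. In mice the contralateral hemisphere receives most of the input of an eye and the ipsilateral hemisphere a smaller share, so the ipsilateral side is not an undeprived control. The labels name no sex and no pooling of animals.

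Krüppel-like factors bind GC-rich and CACCC sequences through zinc fingers near the C terminus, and differ in the N-terminal part, which recruits activators or repressors. Klf9, Klf10, Klf13 and Klf16 form a group of repressors that bind the corepressor Sin3. Several members are known in neurons: Klf4 and Klf9 restrain axon growth, Klf6 and Klf7 favour it, and many are induced quickly by hormones, growth factors or neuronal activity.

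All 10 members passed the filter on low counts, and the libraries held 17849253 to 32213500 gene reads. A member had between 73 reads (Klf4, contralateral library 3) and 8296 reads (Klf9, ipsilateral library 2) in a library. Excitatory cortical neuron markers were present at 4390 to 4870 summed CPM (counts scaled to the library's total) in contralateral and 3680 to 5020 in ipsilateral V1, none of the 5 at 0. The libraries parted in the mitochondrial ribosomal RNA mt-Rnr1, at 14.5 to 35.8 CPM in contralateral 1, ipsilateral 1 and ipsilateral 3, and at 2239 to 5791 CPM in the other libraries. Each of these sets held both hemispheres, with 1 library on one side.

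Klf10 was the one member called different between hemispheres, in the fit with the mouse as a block and not in the fit without it. Its level in contralateral V1 was 61.7% of that in ipsilateral V1, a 1.62-fold lower level. Klf9 lay below the ipsilateral range in all contralateral libraries but did not pass the test. The other 8 members had log2 differences between -0.42 (Klf4) and 0.23 (Klf15), and none passed. All levels are CPM scaled by the trimmed mean of M values (TMM), and all log2 fold changes are contralateral against ipsilateral. Calls are at an adjusted p under 0.05 in edgeR's quasi-likelihood test over 20473 genes.

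Without the mouse in the fit, 0 of 10 members were lower and 0 were higher in edgeR, against 0.127% of all genes lower and 0% higher. At an unadjusted p under 0.05 there were 2 members, Klf9 and Klf10, against 6.15% of all genes, and DESeq2 and limma voom without the mouse also called 0. With the mouse as a block, 1 of 10 was lower and 0 were higher, against 0.698% of all genes lower and 0.195% higher. At an unadjusted p under 0.05 this fit had 3 members, Klf4, Klf9 and Klf10, against 13.2% of all genes. By sign, 8 of 10 members were negative and 2 positive, against 44.6% of all genes negative, and the median log2 fold change over the members was -0.12, against 0.03 over all genes tested. All contralateral libraries lay below all ipsilateral ones for 2 of 10 members, Klf9 and Klf10, against 6.29% of all genes, and above them for 0 members, against 6.7%. Within mice, 4 of 10 members (Klf4, Klf7, Klf9 and Klf10) were lower in 3 of 3, against 17.3% of all genes. Klf15 alone was higher in 3 of 3 mice, 1 of 10 members against 19.2% of all genes.

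**Figure D1:**
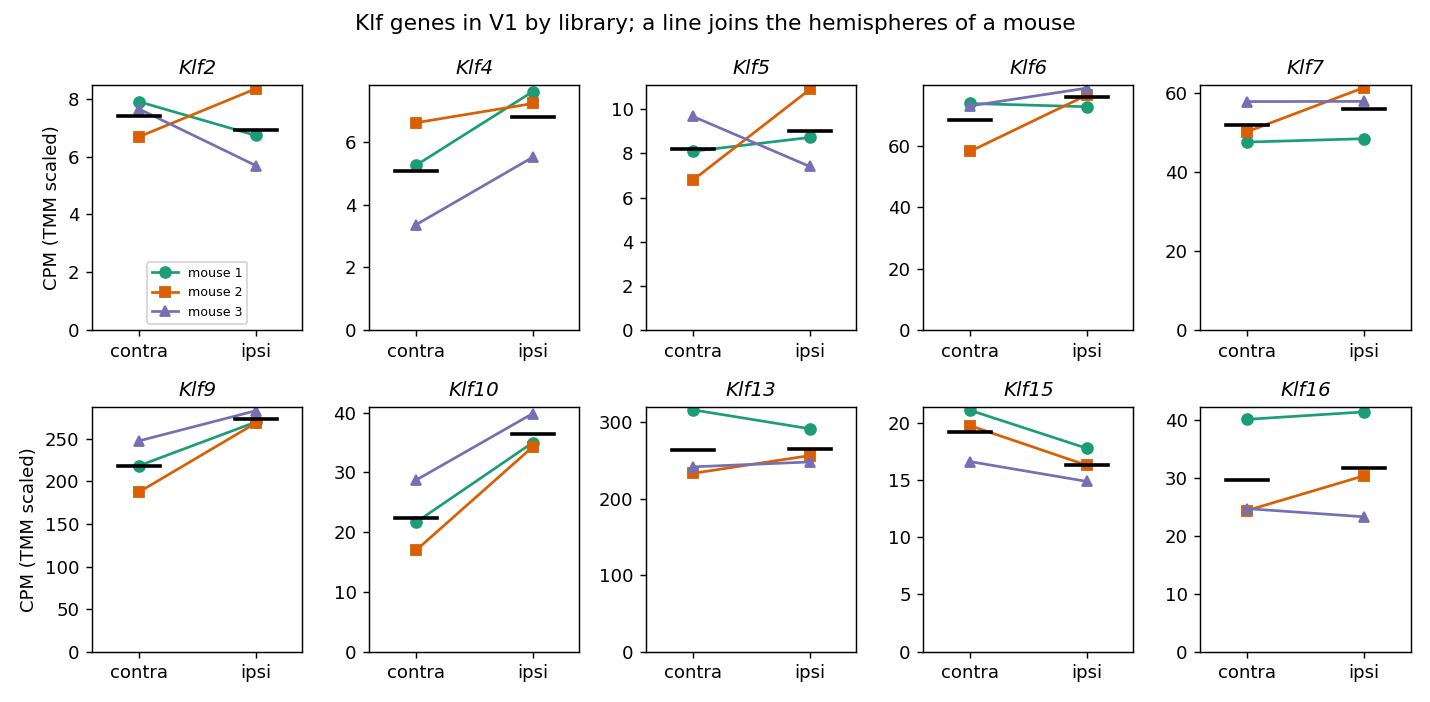
CPM (TMM scaled) of the 10 Klf genes in each library, contralateral on the left and ipsilateral on the right of each panel; symbols are mice, lines join the hemispheres of a mouse and black bars are group means. Klf9 and Klf10 are lower in contralateral V1 in all 3 mice with no overlap of the groups. In Klf2, Klf5, Klf6, Klf13 and Klf16 the mice do not all go the same way.

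The members share 1 kind of domain near the C terminus. Each coding sequence, translated in the GENCODE frame, held 3 C2H2 zinc fingers in a region of 81 residues. After the last finger, 1 or 2 residues followed in Klf2, Klf4, Klf5, Klf6 and Klf7, and 13 (Klf15) to 43 (Klf16) in the other members. Over the 45 pairs of members, identity of this region lay between 60.5% and 95.1%, with a median of 65.4%. The closest pair was Klf6 and Klf7 at 95.1%, Klf2 and Klf4 shared 91.4%, Klf9 and Klf13 81.5%, and Klf9 and Klf10 71.6%. The coding sequences of the third finger are shown for the Sin3-binding members and for Klf4, because members so alike in protein could share reads. Capitals mark the codons of the 2 cysteines and 2 histidines that hold the zinc, and all are on GRCm38, printed on the strand of the gene.
Klf10, chr15:38295995-38296057 (-): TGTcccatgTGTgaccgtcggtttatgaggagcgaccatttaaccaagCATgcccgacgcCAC
Klf9, chr19:23164790-23164852 (+): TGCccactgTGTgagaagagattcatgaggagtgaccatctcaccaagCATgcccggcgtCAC
Klf13, chr7:63891628-63891690 (-): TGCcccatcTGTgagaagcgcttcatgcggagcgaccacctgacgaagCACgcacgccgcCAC
Klf16, chr10:80569053-80569115 (-): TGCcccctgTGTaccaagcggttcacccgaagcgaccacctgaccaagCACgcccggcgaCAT
Klf4, chr4:55528131-55528193 (-): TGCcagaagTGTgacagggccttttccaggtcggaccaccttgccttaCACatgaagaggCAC
The 4 codons that bind zinc sit at the same places in each. Klf9 and Klf10 were identical at 48 of these 63 bases (76.2%), and Klf9 and Klf13 at 49 (77.8%). Over whole transcripts, the longest exact run shared by any pair of members was 26 bases, in Klf6 and Klf7, and 14 bases in Klf9 and Klf10.

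Klf10 (ENSMUSG00000037465; chr15:38291463-38300706, minus strand, GRCm38) was first described as a gene induced early by TGF-beta, and encodes a repressor that binds Sin3. Its level was 21.7, 16.95 and 28.7 CPM in contralateral V1 of mice 1, 2 and 3, and 35.0, 34.3 and 39.9 CPM in ipsilateral V1. The highest contralateral library, of mouse 3, was below the lowest ipsilateral library, of mouse 2. The means were 22.4 ± 5.92 and 36.4 ± 3.04 CPM (SD, n = 3 each). The log2 ratio of contralateral to ipsilateral was -0.69, -1.02 and -0.47 in mice 1, 2 and 3, lower in 3 of 3. Mouse 2 had the widest gap and mouse 3, with the highest level on both sides, the smallest. edgeR without the mouse gave a log2 fold change of -0.70 (SE 0.178, 95% interval -1.08 to -0.31, adjusted p = 0.38). With the mouse as a block it gave -0.72 (SE 0.115, interval -0.96 to -0.48, adjusted p = 0.0031), and Klf10 was called lower in contralateral V1 in this fit. By unadjusted p, Klf10 ranked 106 of 20473 genes without the block and 51 with it. Its bounds in the deposited table differ from those in GENCODE M21.

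Most of the spread of Klf10 lay between the hemispheres. Of the sum of squares of its log2 CPM over the 6 libraries, 71.4% lay between hemispheres, 21.9% between mice and 6.7% in the remainder. A share between hemispheres at least this high was found for 4.37% of tested genes, and the median share over all genes was 14.6%. Blocked edgeR fits on the remaining pairs gave Klf10 log2 fold changes of -0.78 without mouse 1, -0.58 without mouse 2 and -0.85 without mouse 3. Their adjusted p was 0.000168, 0.0194 and 1.6e-05. These fits held 4 libraries each, with little data left to estimate the spread. Without mouse 1 or mouse 3 the adjusted p was below the 0.0031 of all 6 libraries, so it does not measure how firm the call is. DESeq2 gave an adjusted p of 0.0521 without the mouse and 0.000303 with it, and edgeR without the mouse and with no filter on low counts gave 0.00714. limma voom without the mouse gave 0.335. Without contralateral library 2, the fit without the mouse gave -0.53 (adjusted p = 1). Among the libraries low in mt-Rnr1, Klf10 had a log2 fold change of -0.80, and among those high in it -0.58, neither past the threshold.

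**Figure D2:**
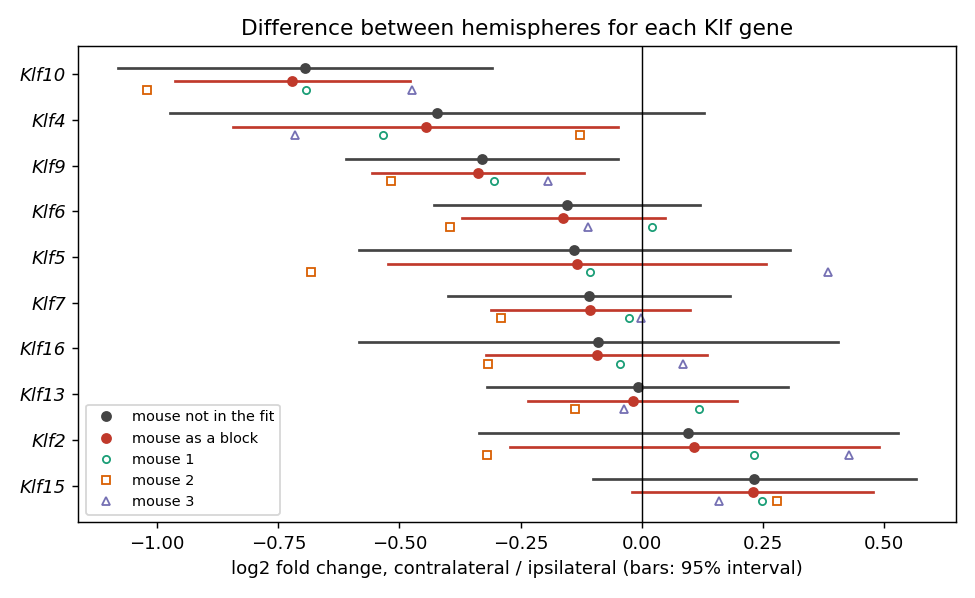
Log2 fold change, contralateral against ipsilateral, of each Klf gene from edgeR without the mouse (dark) and with the mouse as a block (red), with 95% intervals; open symbols are the ratios within each mouse. The intervals of Klf10 and Klf9 lie below 0 in both fits before adjustment, and only Klf10 with the block has an adjusted p under 0.05.

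Klf9 (ENSMUSG00000033863; chr19:23141226-23168134, plus strand) encodes a Sin3-binding repressor that thyroid hormone and glucocorticoids induce in neurons, where it limits axon growth. Its level was 218, 187 and 248 CPM in contralateral V1 of mice 1, 2 and 3, against 270, 268 and 283 CPM in ipsilateral V1. The groups did not overlap, and mouse 2 again had the lowest contralateral value. The means were 218 ± 30.1 and 274 ± 8.06 CPM (SD, n = 3 each), and the log2 ratios within mice were -0.31, -0.52 and -0.19. edgeR gave -0.33 (SE 0.13, interval -0.61 to -0.05, adjusted p = 0.762) without the mouse and -0.34 (SE 0.104, interval -0.56 to -0.12, adjusted p = 0.156) with it. Klf9 thus was not called in either fit. Over the 20 alternative settings its log2 fold change stayed between -0.43 and -0.23, its adjusted p did not go below 0.0686, and 0 of them called it. The share of its spread between hemispheres was 67.1%. The microRNA gene Mir1192 lies within Klf9 on the same strand, and the gene's bounds differ from GENCODE M21.

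Klf9 was also the gene with a pattern over libraries closest to that of Klf10. Among 11041 genes with a mean of at least 5 CPM, the highest Pearson correlations of log2 CPM with Klf10 over the 6 libraries were those of Klf9 (r = 0.996), Dclk1 (r = 0.996) and Sema3a (r = 0.995). These points share libraries, scaling and depth, and the values are a description. Dclk1, a microtubule-associated kinase of neurons, measured 1147 ± 134 CPM contralaterally and 1436 ± 59.0 CPM ipsilaterally (log2 fold change -0.32, adjusted p = 0.799, and 0.286 with the block, edgeR). Sema3a, a secreted axon repellent, measured 71.1 ± 12.6 and 105.3 ± 5.80 CPM (log2 fold change -0.57, adjusted p = 0.336) and was called lower with the block (adjusted p = 0.00495, edgeR). In all of these genes contralateral library 2 was the lowest and ipsilateral library 3 the highest of the 6.

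**Figure D3:**
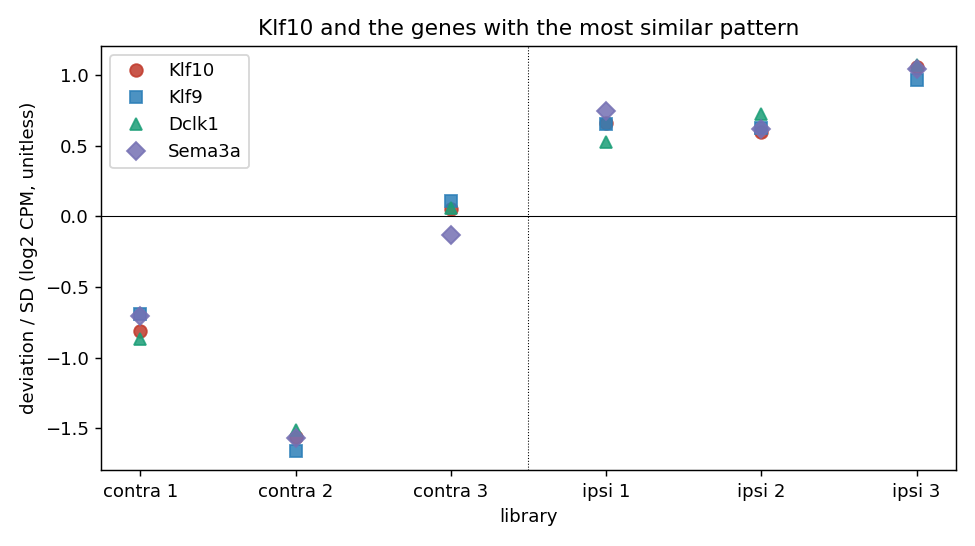
Deviation of log2 CPM from the mean over 6 libraries, in units of the gene's SD, for Klf10 and the 3 genes most like it. In all 4 genes contralateral 2 lies lowest, contralateral 3 near 0 and the ipsilateral libraries above 0.

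Sequence upstream of Klf9 is shown because, of the member promoters searched, it alone matched TGANTCA. This pattern is looser than the AP-1 site, the element bound by Fos and Jun proteins. RefSeq promoters (GRCm38.p6, 250 bases before to 50 after the start) were matched for 7 of the 10 members. Klf5, Klf10 and Klf16 had no promoter entry, so the motif counts do not cover Klf10, the member called with the block. The stretch from base -120 to -31 before the start of Klf9, chr19:23141106-23141195 on the plus strand, has in capitals the TGANTCA match run together with a CACCC box, and downstream a TGACG element.
Klf9 upstream: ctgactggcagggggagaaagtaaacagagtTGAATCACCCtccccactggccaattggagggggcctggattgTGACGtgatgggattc
The match was TGAATCA, so it is labelled here by the pattern and not as an AP-1 site. It began at base -89 and overlapped the CACCC box at -84. TGACG, the core of a cyclic AMP response element, began at -46. Searched on both strands, TGANTCA was in 1 of 7 member promoters and in 7.81% of 32851 promoters. TGACG was in 5 of 7, against 20.8% of all promoters, the GC box GGGCGG in 6 of 7, against 35.7%, and CACCC in 5 of 7, against 57.5%. The full element TGACGTCA (1.79% of all), the Egr site GCGTGGGCG (0.612%), TATAAA (13.6%) and the CArG box (1.63%) were in 0 of 7. The member promoters were rich in G and C, at 58.3% to 74.3% against a median of 52.7% over all promoters. A match is a run of letters and not a measured site.

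Klf13 (ENSMUSG00000052040; chr7:63886351-63938915, minus strand), a Sin3-binding factor best known as an activator of a chemokine gene in T lymphocytes, measured 316, 233 and 242 CPM contralaterally and 291, 256 and 248 CPM ipsilaterally. Mouse 1 was high on both sides, and the groups overlapped. The log2 fold change was -0.01 (interval -0.32 to 0.30, adjusted p = 0.996, edgeR), and -0.02 (interval -0.24 to 0.20) with the block. Of its spread, 88.4% lay between mice and 0.371% between hemispheres. Klf13 overlaps Gm27252 and E030018B13Rik on the other strand, and no source used here gives the strand setting of the counts, so its counts are uncertain. Klf16 (ENSMUSG00000035397; chr10:80567124-80577321, minus strand), the Sin3-binding factor that was described as a regulator of dopamine receptor genes, measured 40.1, 24.3 and 24.7 CPM contralaterally and 41.3, 30.3 and 23.3 CPM ipsilaterally. Here too mouse 1 stood above the others in both hemispheres, and 92.1% of the spread lay between mice. Its log2 fold change was -0.09 (interval -0.58 to 0.41, adjusted p = 0.962, edgeR), with an interval of -0.32 to 0.14 with the block. The median share between mice over all genes was 48.4%.

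**Figure D4:**
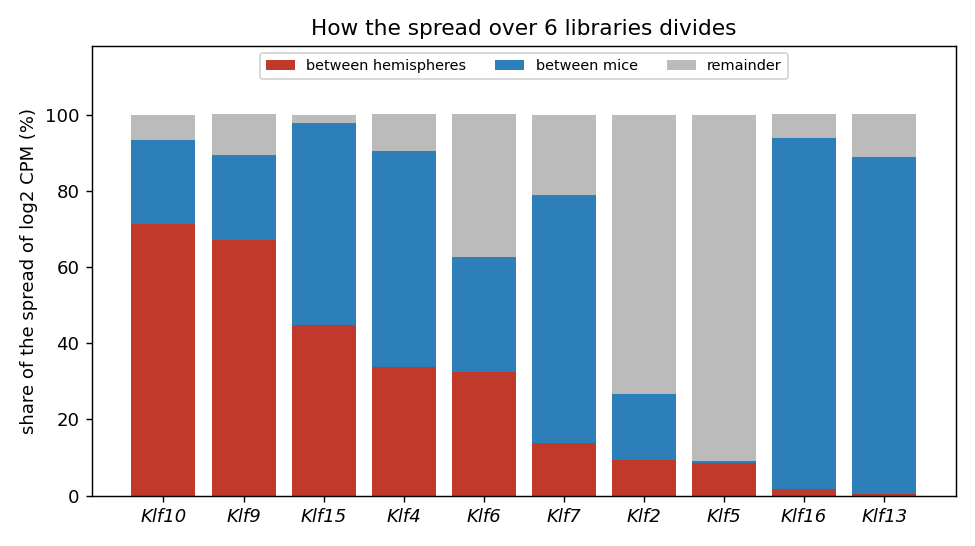
Share of the sum of squares of log2 CPM over 6 libraries that lies between hemispheres, between mice and in the remainder, for each Klf gene. Klf10 (71.4%) and Klf9 (67.1%) have the highest hemisphere shares, and Klf16 (92.1%) and Klf13 (88.4%) the highest mouse shares.

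Klf15 (ENSMUSG00000030087; chr6:90462576-90475238, plus strand) is a glucocorticoid-induced regulator of glucose, lipid and amino acid metabolism. It measured 21.1, 19.7 and 16.6 CPM contralaterally and 17.8, 16.3 and 14.9 CPM ipsilaterally. Each mouse was higher on the contralateral side, by log2 ratios of 0.25, 0.28 and 0.16, but contralateral library 3 lay within the ipsilateral range. The log2 fold change was 0.23 (SE 0.153, interval -0.10 to 0.57, adjusted p = 0.844, edgeR) and 0.23 (SE 0.118, interval -0.02 to 0.48, adjusted p = 0.418) with the block. Klf15 therefore had the sign opposite to Klf9 and Klf10 in each mouse without passing the test.

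Klf4 (ENSMUSG00000003032; chr4:55527143-55532466, minus strand), a reprogramming factor that restrains axon growth in central neurons and acts with Klf2 in endothelium, was the least abundant member. It measured 5.27, 6.63 and 3.36 CPM contralaterally and 7.63, 7.25 and 5.53 CPM ipsilaterally. The groups overlapped, but each mouse had the lower value on the contralateral side (log2 ratios -0.53, -0.13 and -0.72). The log2 fold change was -0.42 (SE 0.254, interval -0.97 to 0.13, adjusted p = 0.83, edgeR) and -0.45 (SE 0.188, interval -0.84 to -0.05, adjusted p = 0.317) with the block. Libraries held 73 to 224 Klf4 reads, so counting error was a larger part of its spread than for the abundant members. Klf2 (ENSMUSG00000055148; chr8:72319033-72321656, plus strand), the factor that blood flow induces in endothelium, measured 7.9, 6.68 and 7.65 CPM contralaterally and 6.73, 8.35 and 5.69 CPM ipsilaterally. Mouse 2 went the other way from mice 1 and 3, and the log2 fold change was 0.10 (interval -0.34 to 0.53, adjusted p = 0.951, edgeR). Its sign turned in some settings: it was -0.22 in the libraries high in mt-Rnr1.

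Klf5 (ENSMUSG00000005148; chr14:99298691-99315036, plus strand), a factor of proliferating epithelia, measured 8.10, 6.79 and 9.68 CPM contralaterally and 8.72, 10.9 and 7.41 CPM ipsilaterally. The mice did not go one way: the log2 ratios were -0.11, -0.68 and 0.39, and 90.9% of its spread lay neither between hemispheres nor between mice. Its log2 fold change was -0.14 (interval -0.58 to 0.31, adjusted p = 0.929, edgeR). As deposited, the bounds of Klf5 differ from those in GENCODE M21. Klf6 (ENSMUSG00000000078; chr13:5861482-5870394, plus strand) and Klf7 (ENSMUSG00000025959; chr1:64029447-64122282, minus strand) are the close pair that favours axon growth. Klf6 measured 73.9, 58.3 and 73.1 CPM contralaterally and 72.9, 76.7 and 79.0 CPM ipsilaterally. Contralateral library 2 stood below the other Klf6 values, and the log2 fold change was -0.15 (interval -0.43 to 0.12, adjusted p = 0.87, edgeR). Klf7 measured 47.5, 50.1 and 57.8 CPM contralaterally and 48.4, 61.3 and 57.8 CPM ipsilaterally. Its log2 ratios were -0.03 in mouse 1, -0.29 in mouse 2 and -0.00128 in mouse 3, where both sides were nearly equal, and the log2 fold change was -0.11 (interval -0.40 to 0.18, adjusted p = 0.91, edgeR). Klf7 overlaps Gm26649, Mir6899 and Gm13748, so its counts are uncertain. In the fit without the mouse, the intervals of Klf2, Klf5, Klf6 and Klf7 include 0 and also the -0.33 of Klf9, so they do not show that these genes are alike in both hemispheres. With the block the intervals were -0.27 to 0.49 for Klf2, -0.52 to 0.26 for Klf5, -0.37 to 0.05 for Klf6 and -0.31 to 0.10 for Klf7. Those of Klf5 and Klf6 include the blocked -0.34 of Klf9, and those of Klf2 and Klf7 do not.

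Per kilobase of gene length in the deposited table, Klf9 was the most abundant member at 75.3 ± 11.2 CPM per kb (SD over 6 libraries), 43.8% of the summed level of the 10. Klf13 followed at 35.1 ± 4.30 CPM per kb, 20.4% of the sum, and Klf6 at 16.5 ± 1.65. Klf16 (11.5 ± 3.05), Klf10 (9.66 ± 2.86), Klf7 (6.62 ± 0.718), Klf15 (6.35 ± 0.830) and Klf5 (5.00 ± 0.878 CPM per kb) followed. Klf2 (3.88 ± 0.529) and Klf4 (1.95 ± 0.514 CPM per kb) were lowest. The library ranges of Klf9 and Klf13, of Klf13 and Klf6, and of Klf2 and Klf4 did not overlap, while all other neighbours in this order did. Dividing by coding length instead moved Klf7 to rank 4, Klf16 to 5 and Klf10 to 6, and exchanged Klf2 and Klf5. The Sin3-binding members Klf9 and Klf13 thus headed the order by either length.

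**Figure D5:**
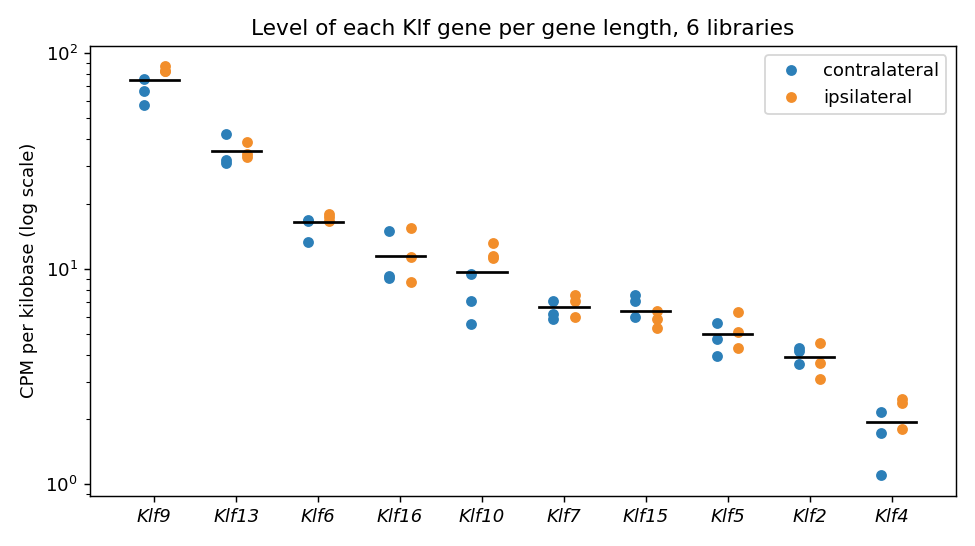
Level of each Klf gene in CPM per kilobase of gene length (log axis), ordered by the mean over 6 libraries (black bar), with contralateral and ipsilateral libraries as points. Levels run from 75.3 (Klf9) to 1.95 CPM per kb (Klf4), and the hemispheres part in Klf9 and Klf10.

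No other tested gene of the family passed. Of the 7 other Klf genes, 4 were tested, 0 passed in either fit, and their median log2 fold change was -0.01. Klf12, a repressor that binds the corepressor CtBP, had the smallest p of these in the fit with the block (29.7 ± 4.67 against 27.2 ± 1.23 CPM, log2 fold change 0.12, adjusted p = 0.674, edgeR). Of 9 Sp genes, the sister family with like fingers, 7 were tested and 0 passed in either fit (median -0.12). Sp8, a factor of some interneurons, was lower in 3 of 3 mice (0.797 ± 0.308 against 1.89 ± 0.483 CPM, log2 fold change -1.23) but did not pass (adjusted p = 0.563, and 0.105 with the block, edgeR). Of 15 cofactors and ubiquitin ligases of these proteins 0 passed in either fit (median 0.00), and Fbxw7, a ubiquitin ligase subunit, had a log2 fold change of -0.32 (adjusted p = 0.771, edgeR).

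Genes of the signals that induce the members were mixed. Among 18 early genes of TGF-beta signalling, the pathway through which Klf10 was first described, 0 passed without the mouse and 3 were lower with it. Their median was -0.09. Ccn2, a matricellular protein, measured 7.97 ± 1.72 against 14.2 ± 4.77 CPM (log2 fold change -0.83, adjusted p = 0.55, and 0.00849 with the block, edgeR). Its relative Ccn1 had -1.03 (adjusted p = 0.797, and 0.0173 with the block), and Skil, a Smad corepressor, had -0.44 (adjusted p = 0.563, and 0.0351 with the block). Each of these 3 calls was lost in a blocked fit that left out a mouse. The adjusted p was 0.0652 for Ccn2 without mouse 1, 0.134 and 0.0822 for Ccn1 without mice 2 and 3, and 0.0853 and 0.0558 for Skil without mice 1 and 2 (edgeR). Of 17 tested glucocorticoid-induced genes, 1 was lower in both fits and 0 were higher, and the median was 0.03. That gene was Cdkn1a, a cell cycle inhibitor also induced by other stimuli, at 3.79 ± 0.678 against 11.05 ± 2.32 CPM (log2 fold change -1.54, adjusted p = 0.018, edgeR). Of 13 tested thyroid hormone-regulated genes 0 passed in either fit (median 0.01), and Rasd2, a small GTPase, had 0.31 (adjusted p = 0.81, edgeR). Of 11 tested endothelial genes under Klf2 and Klf4, 0 passed (median 0.08), and Thbd, a thrombin receptor, had -0.22 (adjusted p = 0.86, edgeR). Of 14 tested axon growth genes 0 passed (median -0.18), and Stmn3, a tubulin-binding protein, had -0.31 (adjusted p = 0.826, edgeR).

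Immediate early transcription factors, the genes that neuronal activity switches on first, had the lowest median of the lists described here. Of 19 tested, 9 were lower without the mouse and 14 with it, 0 were higher in either fit, and the median log2 fold change was -1.26. Fos measured 10.1 ± 3.53 against 41.1 ± 4.96 CPM (log2 fold change -2.02, adjusted p = 0.00263, edgeR). Egr2 had -2.95 and Junb -1.27 (adjusted p = 0.00165 each), and the orphan receptor Nr4a1 had -1.71 (adjusted p = 0.00125, edgeR). The Klf10 difference of -0.70 was smaller than that of each of these 4 genes, which were named for their small p. It was larger than that of Ier5 (-0.60), Maff (-0.45), Csrnp1 (-0.395), Jund (-0.22), Jun (0.07) and Fosl1 (0.125). The rest of the tested genes in the list had larger differences than Klf10. This list was chosen with its result in these libraries known and is no independent evidence of its direction.

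The summed level of cell type markers parted by hemisphere for inhibitory neurons, and the library ranges overlapped for the other cell types. Since the tissue is bulk cortex, fewer cells of a type and less RNA per cell cannot be told apart. Inhibitory neuron markers had 6 of 6 negative log2 fold changes (median -0.50), and their summed level was 278 to 336 CPM in contralateral and 412 to 489 CPM in ipsilateral libraries, with no marker at 0. None of them passed without the mouse, and with it Gad1, Vip and Gad2 were called lower (log2 fold changes -0.56, -0.62 and -0.48 without the block, adjusted p = 0.00558, 0.00754 and 0.0301 with it, edgeR). In blocked edgeR fits that left out a mouse, Gad1 and Vip passed each time, and Gad2 did not without mouse 1 (adjusted p = 0.0964) or mouse 2 (adjusted p = 0.069). With 4 libraries in each of these fits, passing them is a weak check. Oligodendrocyte markers had 6 of 6 negative values (median -0.23, summed 3120 to 5220 against 4470 to 5370 CPM), with Cldn11 at -0.34. Microglia markers had 6 of 6 positive values (median 0.15, summed 276 to 367 against 249 to 327 CPM), with Cx3cr1 at 0.21. Endothelial markers, the cells where Klf2 and Klf4 are best known, had 7 of 8 positive values (median 0.11, summed 195 to 244 against 180 to 200 CPM), with Flt1 at 0.18. No marker of oligodendrocytes, microglia or endothelium passed in either fit or was at 0. The medians were 0.01 for mural cells (Acta2 -0.45), 0.03 for astrocytes (S100b 0.12), -0.06 for oligodendrocyte precursors (Olig1 -0.13), -0.18 for excitatory neurons (Tbr1 -0.33), -0.31 for meninges and fibroblasts (Dcn -0.49) and 0.07 for blood (Hba-a2 0.33), with 0 genes past the threshold in either fit. The part of these markers in the Klf10 and Klf9 values was not tested.

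None of the 1488 circular RNAs in the deposited back-splice table came from the 10 members.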

How the data were processed

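Total RNA from micro-dissected V1 was extracted with TRIzol and a column with DNase I, and libraries were made with a SMARTer stranded total RNA kit (v2), per the labels' protocols. The authors deposited raw read counts per Ensembl gene, in a featureCounts layout, and raw counts of back-splice reads, per the file headers. The build GRCm38 and the tools HISAT2, featureCounts, limma and DESeq2 are named, without roles, per the submitters' processing notes. No source used here gives the strand setting, annotation release or circRNA caller. Deposited normalized circRNA values were not used here.

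Of 52636 IDs, 52489 matched GENCODE M21 (GRCm38), which gave the symbols, and 95.2% of these had equal bounds. 0 columns belonged to other samples. Libraries correlated at 0.976 to 0.988 (log2 CPM, across genes), and at most 2.1% of genes with a mean of at least 10 reads had identical counts.

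Genes were tested in R 4.3.3 with edgeR 4.0.16 (quasi-likelihood test, TMM, filterByExpr at 10 reads and a summed minimum of 15, leaving 20473 genes) and Benjamini-Hochberg adjustment at 0.05, without the mouse as the main design and with it as a block. Alternatives used DESeq2 1.42.0, limma 3.58.1 (voom), other scaling, no filter, libraries left out and the mt-Rnr1 sets (parted at 200 CPM). The labels give both hemispheres of a number the same mouse, and deviations from the group means correlated at 0.431, 0.0775 and 0.172 within mice 1, 2 and 3. Between mice these correlations lay from -0.295 to 0.177. Contralateral 2 with ipsilateral 3 (0.177) and contralateral 3 with ipsilateral 2 (0.15) exceeded the value within mouse 2. The value of 0.177 also exceeded that within mouse 3. SE was derived from the log2 fold change and its F statistic, and intervals are at 95%. Scripts were tested on simulated data. Log2 CPM used a prior count of 2. Figures used Python 3.11.15 and matplotlib 3.10.9.

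The members, gene lists and rules were chosen with earlier results of these data known. All members were named. Of each list, the up to 4 genes with the smallest p among those that passed in either fit were named, else the 1 with the smallest p in either fit. For a member that passed, the 3 genes with the most similar pattern were named. The mean and SD are over 3 libraries a hemisphere, unless stated. Reads are not independent molecules, so counts carry counting error beyond what is given.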

Additional observations from a re-analysis of the deposited data

Results flagged for a closer look

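A circular RNA of Klf12, which is no member, was the one back-splice signal of the Klf and Sp genes, and lies outside the comparison of gene counts. It joins chr14:99942034 to chr14:100149795 on the minus strand (GRCm38, as deposited) and had 1, 2 and 1 back-splice reads in contralateral libraries 1, 2 and 3 and 1, 2 and 2 in the ipsilateral ones, 9 in all. At this depth no difference between hemispheres was detectable.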

How the results depend on the processing

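With 3 mice and a threshold over 20473 genes, small differences were not detectable. The replicate block raised the genes lower in contralateral V1 from 26 to 143 and those higher from 0 to 40. DESeq2 gave 81 and 8, no filter 90 and 19, DESeq2 with the block (chosen after seeing the data) 189 and 26. The block without mouse 1, 2 or 3 gave 202, 124 and 195 lower and 48, 50 and 74 higher. Those fits held 4 libraries each, with little data left to estimate the spread. The low and high mt-Rnr1 libraries gave 5 and 2 higher. Leaving out libraries or mice gave 0 to 38 lower and 0 to 1 higher, with 0 lower without contralateral library 2 or mouse 2. Of the members, 1 (Klf10) was called with the block, without the filter, in the block without each mouse and in DESeq2 with the block, and 0 in fits without the block that left out a library or a mouse. With libraries left out, log2 fold changes crossed 0 for Klf2 (-0.0521 to 0.33), Klf5 (-0.40 to 0.14), Klf13 (-0.18 to 0.0718), Klf16 (-0.38 to 0.11), S100b (-0.0191 to 0.20), Olig1 (-0.33 to 0.0814) and Hba-a2 (-0.26 to 1.19). In the block without mouse 2, Klf5 was 0.15, Klf13 0.04, Klf16 0.0167 and S100b -0.00208, and without mouse 3 Klf2 was -0.0503. In low mt-Rnr1 libraries Klf13 was 0.22, Klf16 0.30, Klf12 -0.11, Stmn3 0.00483, Flt1 -0.0436, Acta2 0.047 and Olig1 0.18, and in high ones Klf2 was -0.22. The causes were not tested.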
